A study of Mus musculus with 2 samples.

Results

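Classical monocytes were studied in single-cell RNA-seq data of immune cells from mouse liver. They were taken as barcodes with at least 3 UMI of Ly6c2 and at least 3 UMI summed over Ccr2, F13a1, Vcan and Fn1; a UMI, or unique molecular identifier, stands for 1 captured transcript. Limits on other lineages were 0 UMI of Cd209a, at most 1 of Siglech, S100a8 and S100a9 together under 3% of the barcode's UMI, at most 3 of Clec4f, 0 of Cd3d and Cd3e, and under 4 of Mki67 and Top2a together. Of 11192 deposited barcodes, 10366 passed the limits on depth and mitochondrial share, and 310 of these met the rule, a share of 2.99% (exact Clopper-Pearson 95% interval 2.67 to 3.34%).

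Classical monocytes leave the bone marrow with the help of the chemokine receptor CCR2, circulate with the surface protein Ly6C, and enter tissues. In blood, some of them give rise to nonclassical, Ly6C-low monocytes, which crawl along the vessel wall and depend on the nuclear receptor NR4A1. In liver, monocytes are known to enter after injury, and they can refill the niche of the Kupffer cells, the resident macrophages of the sinusoids, when these are lost.

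The labels describe an Rcrin KO liver and a WT liver. The series title describes them as a liver conditional knockout of Rcrin and a floxed control; the sources used here give neither the Cre line nor the promoter behind the deletion. Both samples carry the strain label RedMUC298trTg and come from mice 8 weeks old; cells were freed with collagenase IV, sorted and captured on the 10x Genomics platform, and neither the sort gate nor the number of animals is given. The matrix, gene list and barcode list filed for Rcrin KO and for WT were identical byte for byte, with all 11192 barcodes shared. The 310 classical monocytes are therefore cells of 1 matrix, their genotype is unknown, and Rcrin KO could not be set against WT.

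The comparison sets came from the same matrix and were gated on raw UMI, with the same kind of limits on other lineages. They were 268 nonclassical monocytes (at least 3 UMI of Ace, Treml4, Cd300e and Eno3 together, at least 1 of Csf1r or Cx3cr1, under 3 of Ly6c2, none of F13a1 or Vcan), 50 Cd209a-positive dendritic-like cells (at least 2 UMI of Cd209a and 20 of MHC class II genes) and 373 Kupffer cells (at least 4 UMI of Clec4f and 10 of the complement C1q genes, Vsig4 and Timd4 together). Levels are UMI summed over the cells of a set, scaled so that each set adds up to 1e+06 (CPM). A single matrix gives neither a replicate error nor a test; the intervals given are exact, cover counting error only, and leave out the variation between cells and between animals. Genes used by any of these gates were chosen by them, so their levels are given as a description of the gates.

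The 310 cells held 2835092 UMI, with 3028 to 30570 UMI per cell and a median of 8666, against medians of 4974.5 UMI in nonclassical monocytes, 9337 in dendritic-like cells and 13438 in Kupffer cells. The median mitochondrial share was 3.64% in classical monocytes. Scrublet, which scores resemblance to simulated mixtures of 2 cells, called 15 classical monocytes (4.84%), 19 nonclassical monocytes, 0 dendritic-like cells and 7 Kupffer cells as doublets; these were kept in the values below.

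The genes of the rule described the gate as follows. Ly6c2, which encodes a GPI-anchored surface protein of inflammatory monocytes, had 3 to 90 UMI per cell with a median of 15. Its level was 2119.5 CPM in classical monocytes, 31.2 CPM in nonclassical monocytes, 389 CPM in dendritic-like cells and 5.68 CPM in Kupffer cells. Ly6c2 has a near-identical copy, Ly6c1, so reads of the pair could be split or dropped in counting; Ly6c1 was at 2.47 CPM. The other rule genes were found as follows: Ccr2 in 308 of 310, F13a1 (the A subunit of coagulation factor XIII) in 250, Fn1 (fibronectin) in 232 and Vcan (the proteoglycan versican) in 162. In 2365 B cells, which should lack them and had a median of 3320 UMI, Ccr2 was found in 1.23% and F13a1 in 0.338%. At the edge of the rule, 13 members had exactly 3 Ly6c2 UMI, and 28 barcodes met everything else with 2. Lyz2, the macrophage lysozyme, was at 7970 CPM in the cells just inside and 15369 CPM in those just outside. On the other edge, 16 members had a Ccr2, F13a1, Vcan and Fn1 sum of 3 and 21 barcodes had a sum of 2; Lyz2 was at 3558 CPM just inside and 5803 CPM just outside.

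Markers of 16 cell classes were summed. All 4 classical monocyte markers, Ly6c2, Ccr2, F13a1 and Vcan, are genes of the rule, so they cannot check the label; their sum of 3906 CPM in classical monocytes, against 135.9 CPM in nonclassical monocytes, describes the gates. Several other classes are given here, from markers that no gate used. The 5 such nonclassical markers, Nr4a1, Pou2f2, Adgre4, Spn and Itgal, summed to 1207 CPM in classical and 4044 CPM in nonclassical monocytes. They are not confined to monocytes, as their sum was 818 CPM in dendritic-like cells and 1489 CPM in Kupffer cells. The 4 such Kupffer markers, Marco, Cd5l, Fabp7 and Folr2, summed to 22.2 CPM in classical monocytes and 9034 CPM in Kupffer cells. The 5 such neutrophil markers, Lcn2, Ngp, Camp, Ltf and Mmp8, summed to 73.0 CPM in classical monocytes, of which Mmp8 made up 67.4 CPM, and to 10942 CPM in 752 neutrophils gated on S100a8 and S100a9. Ly6g, the surface marker of neutrophils, had no UMI in any classical monocyte, which allows up to 3 of 2835092 UMI. Other classes were less clear. The 7 NK cell markers summed to 626 CPM in classical and 43.0 CPM in nonclassical monocytes, and the 6 plasmacytoid markers to 394 and 279 CPM. The 7 markers of type 1 conventional dendritic cells summed to 306 and 184 CPM. B cell markers summed to 312 and 484 CPM, and endothelial markers to 278 and 356 CPM.

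A part of the cells that met the rule carried transcripts of another lineage. Of the 310, 22 had at least 3 UMI of the T and NK cell genes Ncr1, Klra8, Klra4, Prf1, Eomes, Cd3g and Trac, 14 had at least 3 UMI of the B cell receptor genes Cd79a and Cd79b, 9 had at least 3 of the endothelial genes Clec4g, Ptprb, Stab2 and Kdr, 4 had at least 10 of the complement C1q genes and 1 had plasmacytoid genes; 46 (14.8%) met at least 1 of these, and 264 met none. In nonclassical monocytes the share that met at least 1 was 13.4%, with 1 cell of 268 carrying T and NK genes. It was 4% in dendritic-like cells. In Kupffer cells, where C1q genes were not counted, it was 24.1%, with 73 of 373 cells carrying the endothelial genes. The 22 barcodes with T and NK genes had a median of 0 Lyz2 UMI, against 183 Lyz2 UMI in the 264 cells without other markers, and 19 of the 22 had under 10. Gzma, granzyme A of cytotoxic lymphocytes, was at 8533 CPM within the 22 and 10.6 CPM within the 264. The label classical monocyte therefore goes against the levels of Lyz2 and Gzma in most of these 22 barcodes. Among all 310, 22 barcodes had under 10 Lyz2 UMI; none of these had F13a1, and 21 of them had no Csf1r, the receptor for the growth factor of monocytes. The limit of 10 Lyz2 UMI and the marker limits were set after the values were seen; values without the 46, and without the matching barcodes of the set compared, are given where a ratio of a named gene moved by over 1.5 times or a list's count did. How far depth, mixed barcodes and free RNA entered each level was not tested.

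The comparison with nonclassical monocytes sets the Ly6c2-high monocytes against those that carry Ace and Treml4. Of 8796 genes with a mean of at least 5 CPM over both sets and used by no gate, 627 (7.13%) were at least 2-fold higher in classical monocytes and 535 (6.08%) at least 2-fold lower, on log2(CPM + 1). The median log2 ratio over all of them was 0.02. The 15 leading higher genes, among those found in at least 25% of classical monocytes, included secreted and granule products (Mmp8, Cd177, Chil3) and calcium and actin binding proteins (S100a10, Capg). The log2 ratio of Capg was 3.63, and 4.46 without the barcodes of other lineages. The 15 leading lower genes included receptors of the immunoglobulin family (Lilra5, Fcgr4, Lair1, Cd300ld), the lipid genes Cd36, Fabp4 and Pparg, and the phosphatase gene Dusp16. Dusp16 was at 63.1 CPM in classical and 896 CPM in nonclassical monocytes. Fabp4 was at 32.1 and 294 CPM, a log2 ratio of -3.16 that became -5.04 without the barcodes of other lineages. Cd36, a fatty acid transporter that sinusoidal endothelium also carries, was at 52.9 and 473 CPM. Its log2 ratio was -3.14, and -5.15 without the barcodes of other lineages. A part of endothelial RNA in the Cd36 level was not tested.

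Chil3 encodes a chitinase-like lectin secreted by myeloid cells. Per cell, the lowest, median and highest values were 0, 0.924 and 42.8 UMI per 10000 in classical monocytes, against 0, 0 and 13.6 in nonclassical monocytes. The summed levels were 475 CPM (95% interval 450.4 to 502) in classical and 39.9 CPM in nonclassical monocytes, a ratio of 11.9-fold (95% interval 9.27 to 15.6). The sets overlapped: 163 of 310 classical monocytes had at least 1 Chil3 UMI, against 31 of 268 nonclassical monocytes and 0.423% of B cells. Every gene given per cell below likewise had cells without a UMI in both monocyte sets. Mmp8, the neutrophil collagenase, was at 67.4 CPM in classical and 1.25 CPM in nonclassical monocytes, a ratio of 54.0-fold (95% interval 14.8 to 449) over 2 nonclassical UMI, and Cd177, a GPI-anchored adhesion protein of neutrophils and monocytes, at 68.4 and 3.12 CPM. Both are found in neutrophils as well, at 875 CPM for Mmp8 and 212 CPM for Cd177; a part of neutrophil RNA in these levels was not tested.

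Adhesion and trafficking genes lay more often on the nonclassical side. Of 20 tested 1 was at least 2-fold higher in classical monocytes and 9 were at least 2-fold lower, against 7.13% and 6.08% of all genes tested. The 9 included Itgal, the alpha chain of the integrin LFA-1, at 298 CPM in classical and 989 CPM in nonclassical monocytes, Spn (CD43) at 82.2 and 475 CPM, and S1pr5, a receptor for sphingosine-1-phosphate, at 3.88 and 63.0 CPM, a log2 ratio of -3.71 that became -4.40 without the barcodes of other lineages. The median log2 ratio of the 20 was -0.76.

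**Figure D1:**
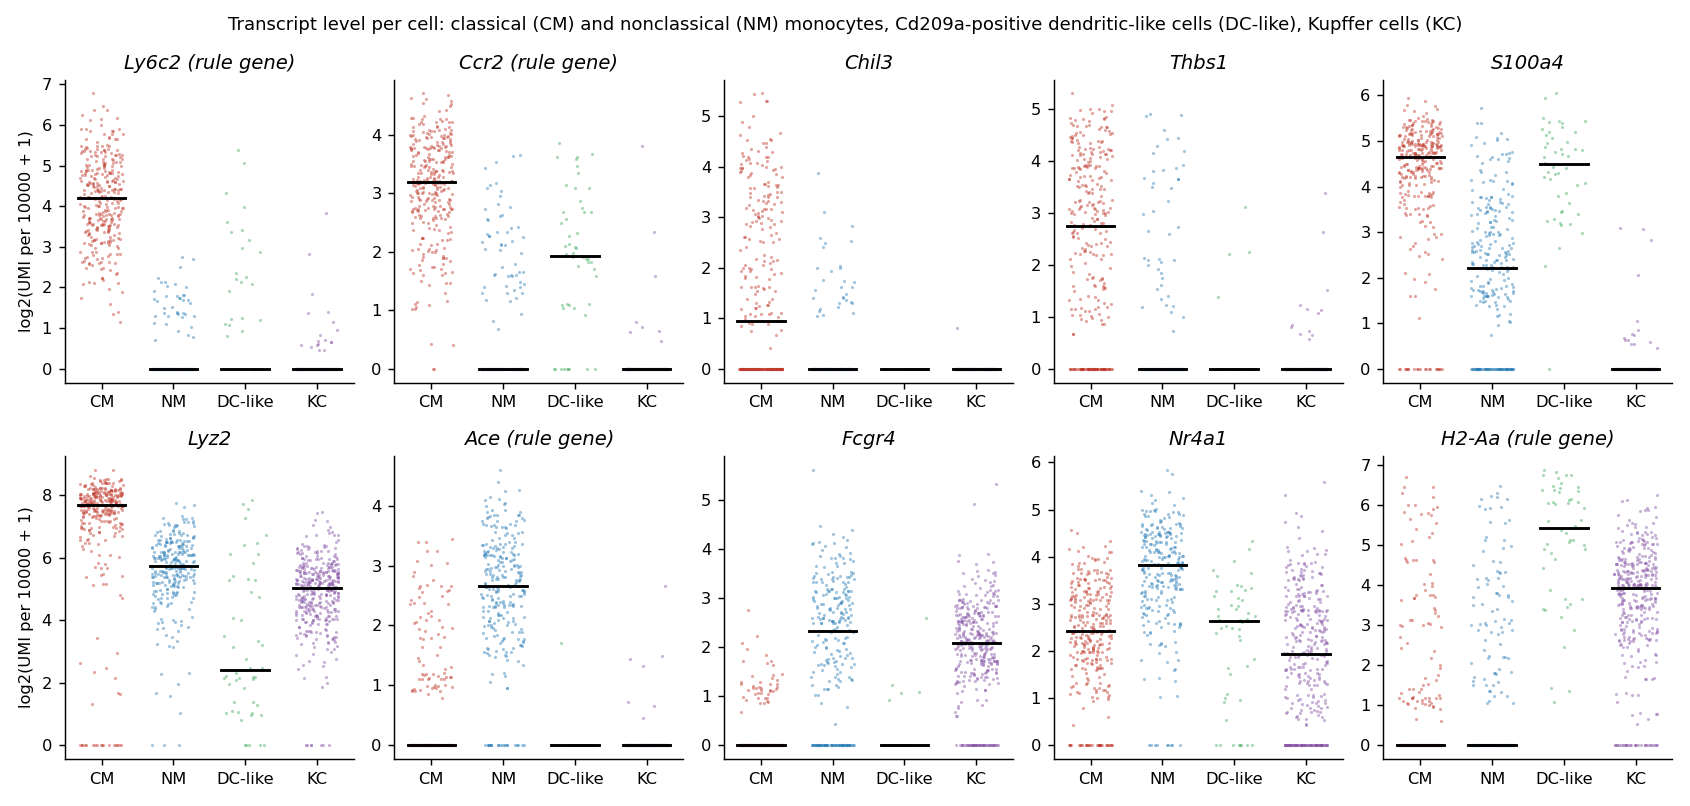
Per-cell levels of 10 genes, as log2(UMI per 10000 + 1), in 310 classical monocytes (CM), 268 nonclassical monocytes (NM), 50 Cd209a-positive dendritic-like cells (DC-like) and 373 Kupffer cells (KC); each point is 1 cell, the black line is the median, and rule genes are named as such. S100a4 and Lyz2 separate the medians of the monocyte sets, Chil3 is spread over part of the classical monocytes, and Fcgr4 and Nr4a1 are higher in nonclassical monocytes.

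Promoter windows are printed for 3 genes that show the contrast: Ly6c2, which defines the set, Chil3, among the leading higher genes, and Fcgr4, among the leading lower genes. Ly6c2 has a pair of starts in RefSeq, and the window listed first is printed; the other, at chr15:75111938-75112187 (minus strand), holds GAGGAA 2 times. The windows are the 250 bases before the transcription start in RefSeq (build GRCm38.p6), 5′ to 3′ on the gene's strand, and were chosen after the values were seen. Capitals mark the following runs of letters on either strand. They are GAGGAA, the core recognised by the myeloid factor PU.1, TTGCNNAA, a loose form of the C/EBP site with N any base, and TATAAA. The windows lie at chr15:75111972-75112221 (minus strand) for Ly6c2, chr3:106167565-106167814 (minus strand) for Chil3 and chr1:171018676-171018925 (plus strand) for Fcgr4.
Ly6c2: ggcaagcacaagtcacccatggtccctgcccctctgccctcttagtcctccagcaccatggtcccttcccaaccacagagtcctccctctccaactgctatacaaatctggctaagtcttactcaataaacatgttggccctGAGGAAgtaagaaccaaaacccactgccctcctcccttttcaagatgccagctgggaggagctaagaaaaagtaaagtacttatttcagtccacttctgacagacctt
Chil3: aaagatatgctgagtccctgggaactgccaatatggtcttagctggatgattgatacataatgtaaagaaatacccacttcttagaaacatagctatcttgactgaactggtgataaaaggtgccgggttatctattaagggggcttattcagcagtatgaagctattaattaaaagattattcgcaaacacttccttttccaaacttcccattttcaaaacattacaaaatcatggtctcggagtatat
Fcgr4: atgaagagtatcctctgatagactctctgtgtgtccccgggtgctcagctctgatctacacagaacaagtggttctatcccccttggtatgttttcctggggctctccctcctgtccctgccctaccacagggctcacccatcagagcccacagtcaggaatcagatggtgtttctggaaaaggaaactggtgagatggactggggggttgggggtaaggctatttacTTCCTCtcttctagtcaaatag
GAGGAA was found in the Ly6c2 and Fcgr4 windows and in 23.3% of all 32851 windows of this length, TTGCNNAA in 9.56% and TATAAA in 12.4%. RefSeq windows were matched for 10 of the 15 leading higher genes, of which 3 held GAGGAA, and for 12 of the 15 leading lower genes, of which 6 held it. A match is a run of letters and not a site shown to be bound.

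Genes of calcium-binding S100 proteins, annexins, galectins and the cytoskeleton were higher in classical than in nonclassical monocytes nearly throughout. Over all genes tested, 7.13% were higher and 6.08% lower. Of 18 tested members, 17 were at least 2-fold higher and 0 lower, with a median log2 ratio of 1.46; without the barcodes that carried other lineage markers the counts were the same and the median was 1.87. S100a4, whose product binds myosin and is associated with cell movement, had 0, 24.2 and 60.3 UMI per 10000 in the lowest, median and highest classical monocyte, against 0, 3.64 and 52.2 in nonclassical monocytes. Its set levels were 2233 and 634 CPM, a ratio of 3.52-fold (95% interval 3.30 to 3.77). S100a6 was at 1822 CPM in classical and 413 CPM in nonclassical monocytes, S100a10, the partner of annexin A2, at 791 and 101 CPM, and Vim, the intermediate filament vimentin, at 2854 and 653 CPM. Anxa1, whose product restrains neutrophil recruitment, was at 414 CPM in classical and 93.5 CPM in nonclassical monocytes. The exception, named after its value was seen, was S100a13 at 158 and 97.9 CPM, a log2 ratio of 0.69.

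Interferon response genes made up a second group on the classical side: 18 of 31 tested were at least 2-fold higher, 0 were lower, and the median log2 ratio was 1.12. Over all genes tested, 7.13% were higher and 6.08% lower. Without the barcodes of other lineages 20 of 31 interferon response genes were higher. Ifi27l2a, an interferon-induced protein of the mitochondrial membrane, was at 3036 CPM in classical and 1354 CPM in nonclassical monocytes, a ratio of 2.24-fold (95% interval 2.14 to 2.35). Slfn5, a member of the Schlafen family, was at 431 CPM in classical and 76.0 CPM in nonclassical monocytes, and Usp18, the protease that removes ISG15 from proteins, at 18.0 and 2.49 CPM. The nonclassical level of Usp18 lies near 1.87 CPM, the level of 3 UMI over that set, so its ratio is imprecise. Ifitm3, which blocks virus entry at endosomes, differed less, at 4038 CPM in classical and 2744 CPM in nonclassical monocytes.

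Genes of secreted products were also more often higher than lower in classical monocytes. Over all genes tested, 7.13% were higher and 6.08% lower. Among matrix and coagulation genes, 6 of 12 tested were higher, 1 was lower and the median was 0.92; the rule genes F13a1, Vcan and Fn1 are not among the 12. Thbs1 (thrombospondin 1, a platelet and matrix glycoprotein) had 0, 5.73 and 38.5 UMI per 10000 in the lowest, median and highest classical monocyte and 0, 0 and 28.9 in nonclassical monocytes. Its set levels were 826 and 171 CPM, a ratio of 4.82-fold (95% interval 4.25 to 5.48). Of 27 cytokine and chemokine genes, 9 were higher and 0 lower, with a median of 0.64. Ccl9, a chemokine ligand of CCR1, was at 466 and 157 CPM. Il1b, the cytokine interleukin 1 beta, was at 1019.7 CPM in classical and 1452 CPM in nonclassical monocytes, and Cxcl2, a chemokine that draws neutrophils, at 2037 and 2159.7 CPM, both within 2-fold. Ccl5, a chemokine of cytotoxic lymphocytes, was at 980.2 CPM in classical and 82.3 CPM in nonclassical monocytes, a log2 ratio of 3.56 that became -0.46 without the barcodes that carried other lineage markers.

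In the MS4A family of membrane proteins 5 of 8 tested genes were higher and 0 lower, with a median of 1.49. Without the barcodes of other lineages 6 of 8 were higher and 0 lower. The shares over all genes tested were 7.13% higher and 6.08% lower. Ms4a4c was at 603 CPM in classical and 161 CPM in nonclassical monocytes, and Ms4a6c at 1290.3 and 663 CPM. Of 23 pattern recognition genes, 4 were higher and 1 lower. Cd14, the co-receptor for lipopolysaccharide, was at 939 CPM in classical and 371 CPM in nonclassical monocytes, a ratio of 2.53-fold (95% interval 2.31 to 2.77). Trem1, an activating receptor of myeloid cells, went the other way, at 114 and 342 CPM. Among 25 lysosome, lysozyme and oxidase genes 5 were higher and 2 lower. Lyz2 had 0, 203 and 447 UMI per 10000 in the lowest, median and highest classical monocyte, against 0, 51.5 and 213 in nonclassical monocytes, and set levels of 18783 and 5696 CPM.

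Of 31 tested transcription factors 0 were at least 2-fold higher in classical monocytes and 8 lower, against 7.13% and 6.08% of all genes tested, and the median was 0.08; without the barcodes that carried other lineage markers 6 were higher and 8 lower. Nr4a1, on which nonclassical monocytes depend, had 0, 4.34 and 22.7 UMI per 10000 in the lowest, median and highest classical monocyte and 0, 13.1 and 56.4 in nonclassical monocytes. The set levels were 539.7 and 1343 CPM, so that the gene was 2.49-fold (95% interval 2.33 to 2.66) lower in classical monocytes. Pou2f2 (OCT2) was at 216 CPM in classical and 793 CPM in nonclassical monocytes, and Klf2, a factor of quiescent leukocytes and endothelium, at 432 and 1187 CPM. Cebpb was at 2628 and 3553 CPM, Spi1, which encodes PU.1, at 449.7 and 674 CPM, and Irf8, needed for monocyte and dendritic cell development, at 284 and 190.1 CPM, all within 2-fold.

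Fcgr4, the activating receptor for IgG2 antibodies, had 0, 0 and 5.78 UMI per 10000 in the lowest, median and highest classical monocyte and 0, 4.0 and 48.1 in nonclassical monocytes, and was 19.2-fold (95% interval 14.9 to 25.3) lower in classical monocytes, at 22.6 against 434 CPM. Its relative Fcgr3 was at 322 CPM in classical and 163 CPM in nonclassical monocytes. Over 22 Fc and complement receptor genes, 4 were higher and 4 lower, against 7.13% and 6.08% of all genes tested. Without the barcodes of other lineages 6 were higher and 5 lower. Among chemokine receptors 2 of 9 tested were higher and 2 lower, and without the barcodes of other lineages 2 of 8 were higher and 4 lower. Ccr1 was at 87.5 CPM in classical and 27.4 CPM in nonclassical monocytes, while Cxcr4, the receptor that holds leukocytes in bone marrow, was at 209 and 619.5 CPM. Cx3cr1, the fractalkine receptor, was used by the nonclassical gate and was at 147 and 362 CPM. Ly6i, a relative of Ly6c2, was at 43.7 CPM in classical and 166 CPM in nonclassical monocytes, the reverse of Ly6c2. Class II and costimulation genes depended on the other lineages: of 11 tested 2 were higher and 3 lower with a median of 0.10, and without the barcodes that carried other markers 5 of 9 were higher and 1 lower with a median of 1.17.

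**Figure D2:**
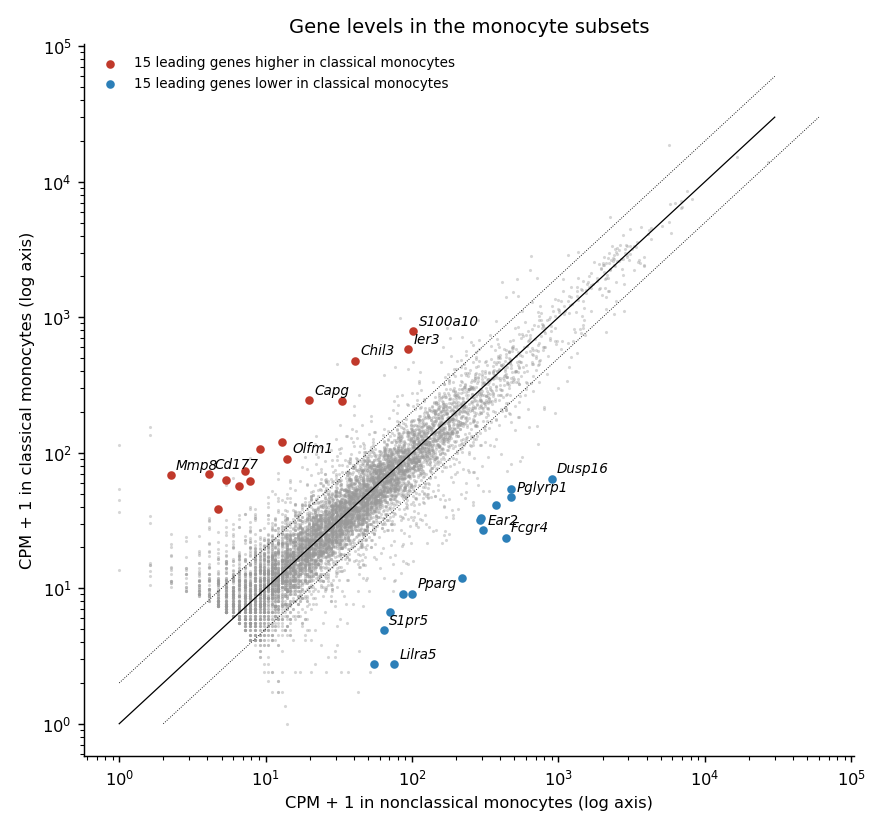
CPM + 1 of each tested gene in classical monocytes (vertical, log axis) against nonclassical monocytes (horizontal, log axis); the solid line marks equal levels, the dotted lines a 2-fold difference, and coloured points the 15 leading genes in each direction. Chil3, Capg and S100a10 lie on the classical side, and Fcgr4, Dusp16 and Ear2 on the nonclassical side.

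Cd209a-positive dendritic-like cells share Ccr2 with classical monocytes but express class II genes. Of 8686 genes tested, 1138 (13.1%) were at least 2-fold higher in classical monocytes and 531 (6.11%) at least 2-fold lower, and the median log2 ratio was 0.08. Only 50 dendritic-like cells with 496339 UMI entered, so their levels are less precise than those of the other sets. Chil3, at 475 CPM in classical monocytes, had no UMI in the dendritic-like cells; set against the floor of 3 UMI over that set, 6.04 CPM, it was at least 78.7-fold higher in classical monocytes.

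Pattern recognition and lysosomal genes were mostly higher in classical monocytes. Over all genes tested against dendritic-like cells, 13.1% were higher and 6.11% lower. Of 23 pattern recognition genes tested, 18 were higher and 0 lower, with a median log2 ratio of 1.57, or 1.52 with genes at 0 UMI placed at the floor. They included Cd14 at 939 CPM in classical monocytes and 224 CPM in dendritic-like cells, and Clec4e, a receptor for mycobacterial glycolipids, at 290.3 and 62.5 CPM. Of 25 lysosome, lysozyme and oxidase genes 15 were higher and 0 lower, with a median of 1.28. Lyz2 was at 18783 CPM in classical monocytes and 3336 CPM in dendritic-like cells, a ratio of 5.63-fold (95% interval 5.36 to 5.92), Hp, which encodes haptoglobin, at 709 and 54.4 CPM, and Cybb, the catalytic subunit of the phagocyte oxidase, at 1650.0 and 590.3 CPM.

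Among matrix and coagulation genes 9 of 11 tested were higher and 0 lower, with a median of 2.76, or 2.35 with genes at 0 UMI placed at the floor. The shares over all genes tested were 13.1% higher and 6.11% lower. Thbs1 was at 826 CPM in classical monocytes and 42.3 CPM in dendritic-like cells, and F10, which encodes coagulation factor X, at 236 and 10.1 CPM. Transcription factors differed as well, with 11 of 30 tested higher and 3 lower. Irf8 was at 284 CPM in classical monocytes and 46.3 CPM in dendritic-like cells, a ratio of 6.12-fold (95% interval 4.05 to 9.71), and Nr4a3 was lower in classical monocytes at 62.8 against 187 CPM.

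Class II transcripts were lower in classical monocytes, but the dendritic-like gate required at least 20 UMI of class II genes. Genes that rise and fall with those are partly selected by that gate, so the class II counts describe the gates in part. Over all genes tested, 13.1% were higher and 6.11% lower. Of 12 tested class II and costimulation genes, which leave out the 4 genes of the dendritic-like gate, 0 were higher and 9 lower, with a median of -1.73. Ciita, the master activator of class II transcription, was at 30.0 CPM in classical monocytes and 195 CPM in dendritic-like cells, and H2-DMb2, which helps to load peptide, at 10.6 and 80.6 CPM. The log2 ratio of H2-DMb2 was -2.82, and -4.56 without the barcodes of other lineages, where its level in classical monocytes was 2.53 CPM. Cd86, a costimulatory ligand of T cells, was within 2-fold at 125 and 189 CPM. Of 18 tested genes listed for dendritic-like monocytes 1 was higher and 11 lower, with a median of -1.28; without the barcodes of other lineages 0 of 17 were higher and 11 lower. Flt3, the growth factor receptor of dendritic cells, was at 18.0 CPM in classical monocytes and 159 CPM in dendritic-like cells, 8.85-fold (95% interval 6.14 to 12.8) lower in classical monocytes. Clec10a, a lectin of conventional dendritic cells, was at 19.0 and 234 CPM.

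Of the 18 tested S100, annexin and galectin genes 1 was at least 2-fold higher than in dendritic-like cells and 1 lower, and the median was -0.00. The shares over all genes tested were 13.1% higher and 6.11% lower. S100a4 was at 2233 CPM in classical monocytes and 2396 CPM in dendritic-like cells, S100a6 at 1822 and 1872 CPM and Vim at 2854 and 3046 CPM. The lower gene was Lgals1, which encodes galectin 1, at 375 against 872 CPM, and the higher one Anxa3 at 32.1 against 6.04 CPM, a ratio of 5.31-fold (95% interval 1.76 to 26.2) over 3 dendritic-like UMI. Interferon response genes had 8 of 31 higher and 0 lower with a median of 0.52.

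Kupffer cells are the resident macrophages that monocytes can replace. Of 9078 genes tested, 1157 (12.7%) were at least 2-fold higher in classical monocytes and 1227 (13.5%) at least 2-fold lower, with a median log2 ratio of 0.01. S100a4 was at 2233 CPM in classical monocytes and 4.84 CPM in Kupffer cells, Ahnak, a large scaffold protein of the cell cortex, at 1548 and 24.0 CPM (log2 ratio 5.95, or 6.84 without the barcodes of other lineages), and Gpr141, an orphan receptor, at 379.9 and 1.89 CPM. Of 18 S100, annexin and galectin genes 11 were higher and 1 lower with a median of 2.49, and of 18 adhesion and trafficking genes 10 were higher and 1 lower with a median of 1.67. Chil3 had 1 UMI in Kupffer cells, 0.211 CPM, and a ratio of 2259-fold (95% interval 405 to 89278).

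Iron and haem genes lay on the Kupffer side, while 12.7% of all genes tested were higher in classical monocytes and 13.5% lower. Of 16 tested genes 0 were higher in classical monocytes and 11 lower, with a median of -2.04. Ferroportin (Slc40a1), which exports iron, was at 14.8 CPM in classical monocytes and 2158 CPM in Kupffer cells, Cd163, the haemoglobin scavenger receptor, at 2.12 and 487 CPM, and Hmox1, which degrades haem, at 72.0 and 1036 CPM. Much of the Slc40a1 level in classical monocytes lay in the barcodes of other lineages: without them it was 1.69 CPM, and the log2 ratio was -9.68 in place of -7.09. The storage protein genes Fth1 and Ftl1 were within 2-fold, with log2 ratios of -0.01 and -0.92. Among 31 transcription factors 5 were higher and 13 lower. Nr1h3, which encodes the liver X receptor alpha, was at 10.9 CPM in classical monocytes and 586 CPM in Kupffer cells (log2 ratio -5.62, or -6.38 without the barcodes of other lineages), and Spic, a factor of iron-handling macrophages, at 3.88 and 153 CPM. Among the genes that lead the Kupffer side, Folr2, which encodes folate receptor beta, was at 1.41 CPM in classical monocytes and 1217 CPM in Kupffer cells, and Marco, a scavenger receptor, at 2.82 and 750.5 CPM. Cd5l, a secreted scavenger protein, was at 16.6 and 6638 CPM, with a log2 ratio of -8.56 that became -9.20 without the barcodes of other lineages.

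**Figure D3:**
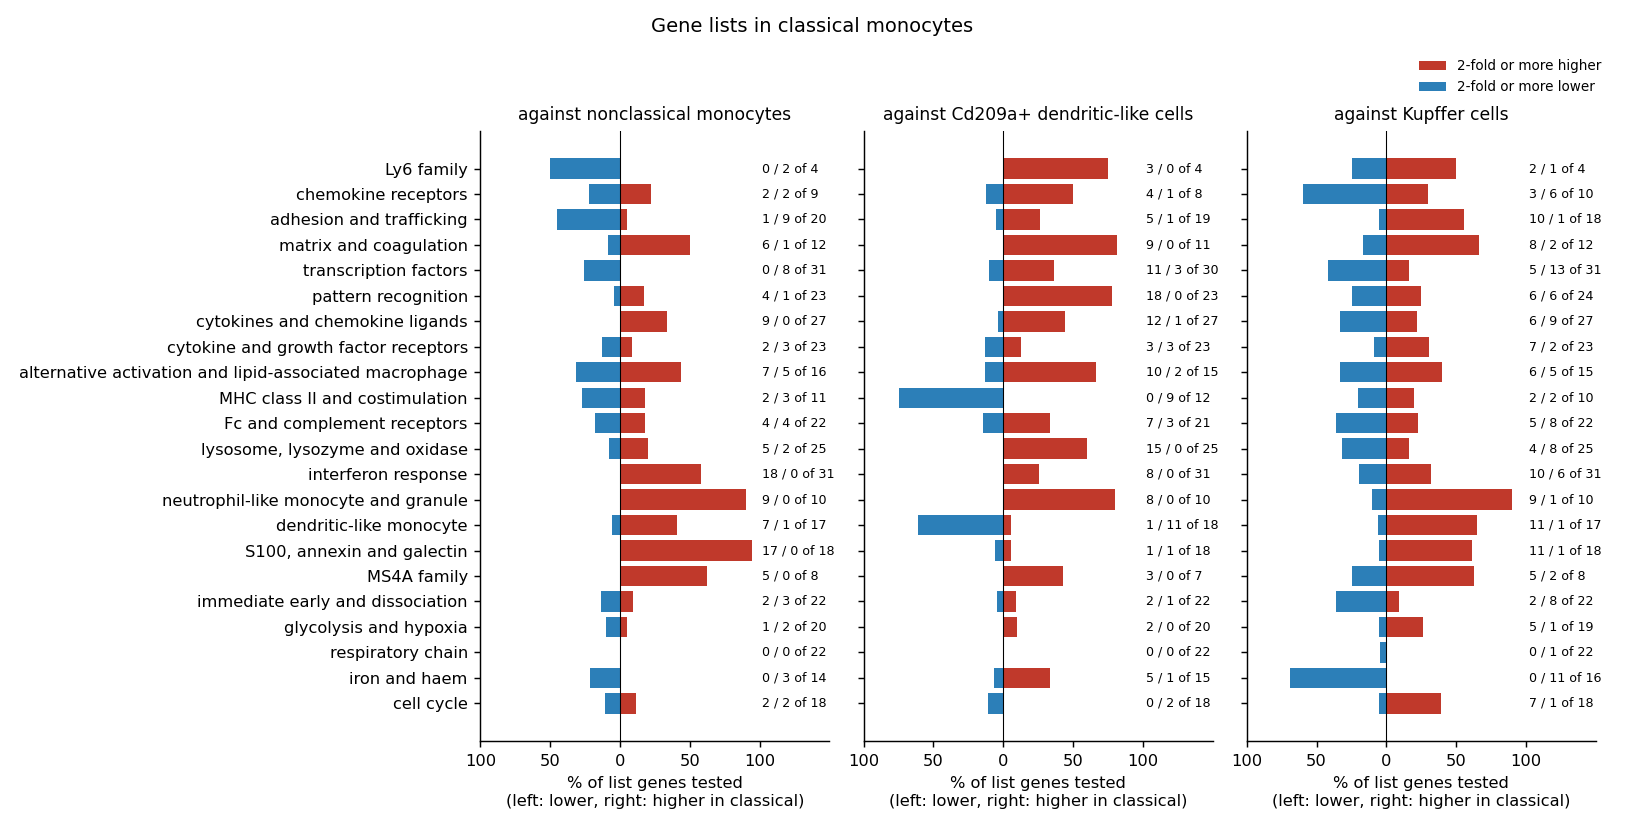
Share of each list's tested genes that were at least 2-fold higher (red, right) or lower (blue, left) in classical monocytes, against nonclassical monocytes, Cd209a-positive dendritic-like cells and Kupffer cells, with the numbers higher / lower of the genes tested. The S100, annexin and galectin list has 17 of 18 higher against nonclassical monocytes, 1 of 18 against dendritic-like cells and 11 of 18 against Kupffer cells; the iron and haem list has 11 of 16 lower against Kupffer cells.

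Against all 10056 other kept barcodes 610 of 9671 tested genes (6.31%) were at least 2-fold higher in classical monocytes and 1815 (18.8%) at least 2-fold lower. The leading higher genes included Stxbp6 at 114 CPM in classical monocytes and 3.66 CPM in the other barcodes, F10 at 236 and 12 CPM, Nrg1, a ligand of ERBB receptors, at 62.4 and 2.68 CPM, and Mcub, which restrains the mitochondrial calcium channel, at 131 and 6.96 CPM. Adora2b, an adenosine receptor, was at 51.5 and 2.26 CPM and Serpinb2, an inhibitor of plasminogen activators, at 55.0 and 3.40 CPM. Lyz2 was among the leading genes too, at 18783 CPM in classical monocytes and 1287 CPM in the other barcodes.

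Classical monocytes varied among themselves. With each cell thinned to 2000 UMI, 3088 genes had a mean of at least 0.1 UMI; their median variance-to-mean ratio was 1.06, near the value of 1 that counting alone gives, and 91 genes exceeded 2. Without the 46 barcodes that carried other lineage markers 61 did. Ccl5 and Gzma led the order with ratios of 52.0 and 26.5, and without those barcodes the ratios were 10.8 and 0.985. The class II genes kept theirs: Cd74 had 20.4 with and 22.3 without them, and H2-Ab1 11.1 and 12. Cxcl9, an interferon-induced chemokine, had 17.1 and 17.9; 19 of 310 cells had any Cxcl9 UMI, and the highest cell reached 131 UMI per 10000.

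Class II expression was uneven among the 264 cells without other lineage markers. Summed over H2-Aa, H2-Ab1, H2-Eb1 and Cd74, 62 cells had no UMI, 190 had 5 or fewer, 45 had 20 or more and 24 had 100 or more, with a median of 1.5 and a highest value of 732. The 264 were placed in 4 bins of 66 cells, lowest to highest, by the class II share of their UMI, so the class II levels of the bins only describe the split. From the lowest to the highest bin, Cd74 was at 4.99, 85.0, 289 and 6592 CPM, so most of the signal lay in the top bin. Median depth was 8272, 8744, 8823 and 8587 UMI in the same order.

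Several genes other than those used for the split stood apart in the top bin. They are given with no test, since cells are not replicates. Ciita was at 3.33, 3.40, 12.1 and 93.4 CPM from the lowest to the highest bin. It activates the class II genes used for the split, so its levels are not separate from that split. Tmem176b, a membrane protein of antigen-presenting cells, was at 135, 159.9, 121 and 382 CPM. Klf4, a factor of monocyte differentiation named after its values were seen, was at 261, 286, 260.0 and 525 CPM. Ace, a gene of the nonclassical gate, was at 49.9, 64.6, 46.5 and 182 CPM. Some genes with higher levels in classical than in nonclassical monocytes were lowest in the same bin. Chil3 was at 661, 701, 503 and 208 CPM, Hp at 879, 1039, 811 and 315 CPM and Mgst1, a membrane-bound glutathione transferase, at 501, 633, 396 and 222 CPM. The rule genes differed too, with F13a1 at 884, 901, 964 and 367 CPM and Vcan at 251, 369, 258 and 81.7 CPM, whereas Ccr2 was at 814, 855, 973 and 884 CPM and Ly6c2 at 2173, 2685, 2238 and 1936 CPM. Others showed no such step: Ms4a4c was at 606, 680.3, 635 and 679 CPM and S100a4 at 2319, 2869, 2505 and 2194 CPM. Nr4a1 was at 533, 607, 513 and 614 CPM. Flt3 was at 18.3, 10.2, 18.9 and 36.7 CPM, against 159 CPM in dendritic-like cells, and Cd209a was at 0 by the rule.

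**Figure D4:**
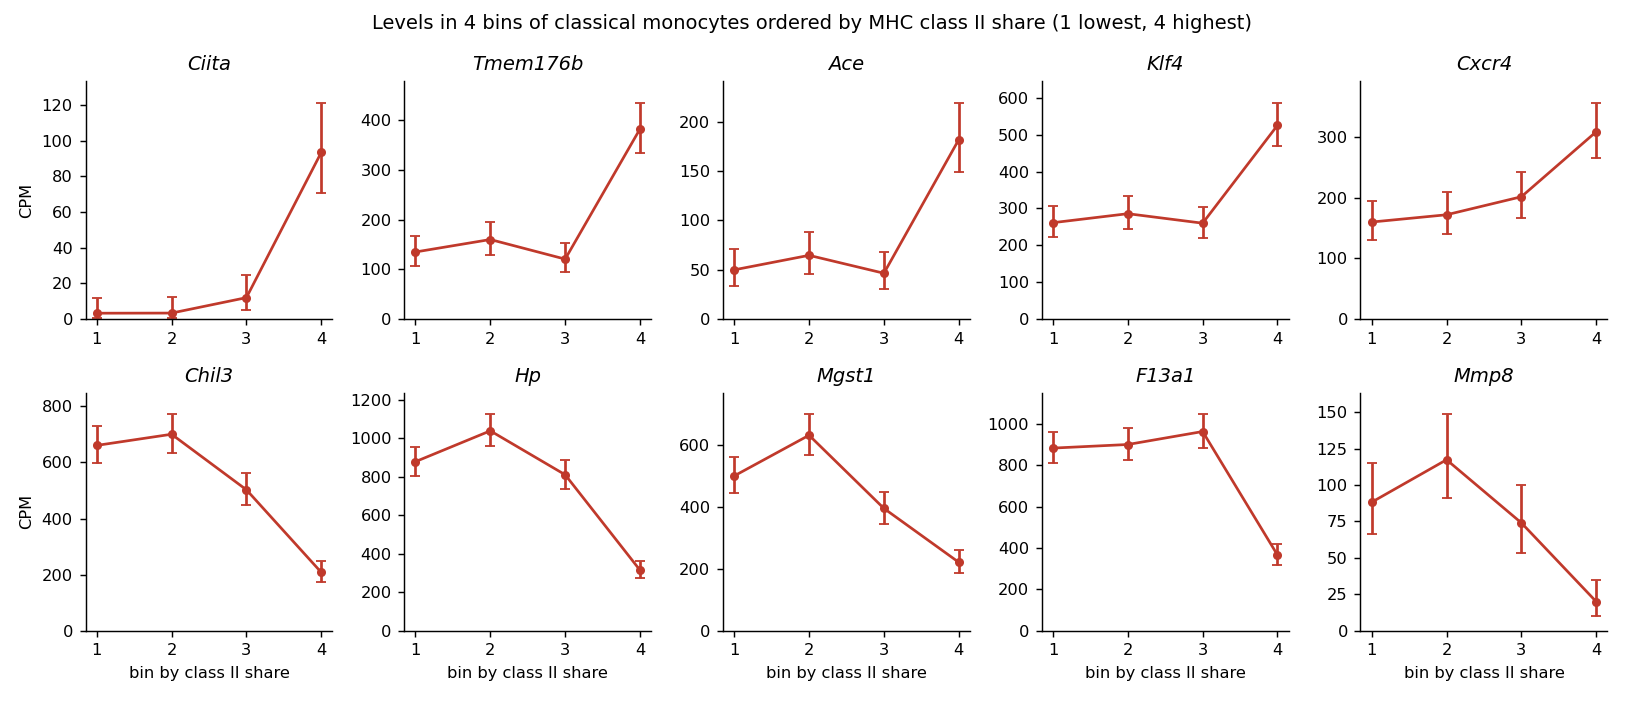
Levels in CPM of 10 genes in bins of 66 classical monocytes each, ordered by the class II share of their UMI, with exact Poisson 95% intervals that cover counting error only. Ciita, Tmem176b, Ace, Klf4 and Cxcr4 are highest, and Chil3, Hp, Mgst1, the rule gene F13a1 and Mmp8 lowest, in the top bin.

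Ordered instead by the Ly6c2 share, the 4 bins of the same 264 cells had Ly6c2 levels of 632, 1318, 2417 and 4596 CPM. Chil3 was at 377, 523, 504 and 661 CPM from the lowest to the highest bin and Lyz2 at 16369, 20349, 22135 and 23285 CPM. Of the 10 markers listed for nonclassical monocytes some ran the other way, with Ace at 130.2, 98.9, 75.1 and 42.3 CPM, Eno3, a muscle-type enolase, at 42.2, 23.5, 21.2 and 5.07 CPM, Treml4 at 56.3, 31.8, 14.7 and 20.3 CPM and Adgre4, an adhesion receptor, at 107, 101, 49.0 and 47.3 CPM. Others differed by less than 2-fold between the lowest and the highest bin. Spn was at 84.5, 67.0, 73.4 and 43.9 CPM, Itgal at 359, 308, 268 and 245 CPM, Pou2f2 at 252, 226, 249.7 and 199 CPM, Cx3cr1 at 169, 156, 175 and 134 CPM and Nr4a1 at 561, 567, 594 and 544 CPM. Cd300e held few UMI, at 3.52, 0, 8.16 and 0 CPM. Class II was highest in the lowest Ly6c2 bin but did not fall steadily. H2-Aa was at 1469, 151, 258 and 308 CPM from the lowest to the highest bin. S100a4 was at 2411, 2524, 2414 and 2529 CPM from the lowest to the highest bin.

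A few cells carried granule enzyme transcripts typical of myeloid progenitors. Of the neutrophil-like monocyte and granule genes, 9 of 10 tested were higher than in nonclassical monocytes, with a median log2 ratio of 4.50, or 4.31 with genes at 0 UMI placed at the floor. The share over all genes tested was 7.13% higher. For Mpo, Elane and Ctsg nearly all UMI lay in few cells: 4 members held all 383 Mpo UMI (myeloperoxidase), 305 of 319 Elane UMI (neutrophil elastase) and 119 of 124 Ctsg UMI (cathepsin G). Prtn3 (proteinase PR3) was spread wider, with 325 of 435 UMI in those 4 members. Their median depth was 19415.5 UMI, against 8666 in all members. Hp, another gene of the list, was at 709 CPM in classical and 219 CPM in nonclassical monocytes. The secondary granule genes Camp and Ltf had 2 UMI each in all 310 cells; without the barcodes of other lineages 10 of 12 tested genes of the list were higher and 1 lower.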

How the data were processed

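The deposited values are UMI counts per gene and barcode in 1 matrix, filed identically for Rcrin KO and WT; its header, per the file headers, names software version 3.0.0, and the submitters' processing notes name Cell Ranger 2.1.1, STAR, Seurat 2.3.4 and mm10, with no roles or order. The limits on barcodes were 500 UMI and 200 genes or more and a mitochondrial share of 10% or less, which left 10366 of 11192, with 64321006 of 67037274 UMI and a median of 4212.5. Sets were gated on raw UMI, and no barcode was removed as a doublet; Scrublet called 351. UMI were summed per set and scaled to CPM, and ratios were taken on log2(CPM + 1) for genes with a mean of at least 5 CPM over the sets compared. Exact Poisson, conditional and Clopper-Pearson intervals at 95% cover counting error only. With 1 matrix no test was made. Variation was measured after thinning cells to 2000 UMI.

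The members, the 22 gene lists and the comparison sets were chosen with earlier results of these data known; 467 of 470 list entries are in the files. Genes were named if they belonged to the rule or the markers, were among the 6 highest members of a list or its 3 leading members in a direction, among the 15 leading genes of a comparison, or among the 20 most variable; exceptions are said to be chosen after their values were seen. Results of some genes are not reported here. Genes with near copies, such as Ly6c2, Ear2 and the Klra and Ms4a families, are uncertain where counting split reads. The steps were tested on simulated counts, in Python 3.11.15 with numpy 2.4.6, scipy 1.17.1, pandas 2.3.3, scanpy 1.11.5 and matplotlib 3.10.9.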

Additional observations from a re-analysis of the deposited data

How the results depend on the processing

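Of 153 values recomputed under 17 alternatives for the share of classical monocytes and the counts of genes past 2-fold, 125 stayed within 1.5 times the reported count, or within the interval of the share. The share was 5.56% with a 5% mitochondrial limit, 2.64% with Ly6c2 of at least 5 UMI, 2.62% with a Ccr2, F13a1, Vcan and Fn1 sum of at least 6, and 2.55% without the barcodes of other lineages, an alternative added after the data were seen. Thinning to 2000 UMI gave 976 higher and 891 lower genes against nonclassical monocytes and 1507 lower genes against dendritic-like cells, and moved the median of all genes against dendritic-like cells to -0.03, against 0.08 without thinning. With no filter on low values the counts were 1243 higher and 1058 lower against nonclassical monocytes, 2704 and 1133 against dendritic-like cells, 1801 and 1931 against Kupffer cells, and 3175 lower against all other barcodes. With a minimum of 20 CPM they were 303 and 320, 464 and 227, 687 and 694, and 795 in the same order, where fewer genes were tested. With a pseudocount of 10 CPM they were 262 and 274, 546 and 203, 765 and 772, and 945, since a larger pseudocount shrinks ratios of low genes. The median mitochondrial share was 3.64% in classical monocytes and 5.16% in all other kept barcodes. For the mitochondrial limit and thinning the cause was not tested. Of 1105 ratios of genes the text names 156 left their counting interval and 1 changed sign: Ccl5 against nonclassical monocytes had a log2 ratio of -0.46 without the barcodes of other lineages. Of 1496 list medians 214 moved by at least 0.25 on the log2 scale and 2 changed sign: the median of the neutrophil-like and granule list against all other barcodes was at -0.92 without barcodes over 20000 UMI, and that of the chemokine receptors against Kupffer cells was at 0.41 with no filter on low values. No paired analysis was possible because both samples hold 1 matrix and no test was made. At this depth a gene with no UMI in the 50 dendritic-like cells may still reach 6.04 CPM.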

Other observations

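Ly6c2 itself was no private mark of these cells. Of 2011 kept barcodes with at least 3 Ly6c2 UMI, 310 (15.4%) were classical monocytes, 1049 (52.2%) had Cd3d or Cd3e, 315 had at least 2 UMI of the NK cell genes Ncr1, Klra8, Klra4 and Eomes, 272 had at least 2 UMI of Siglech and 156 carried B cell receptor genes. Classical monocytes held 6009 of 26841 Ly6c2 UMI, or 22.4%. Of the rule's limits, the one on Cd3d and Cd3e alone kept out 142 barcodes and the one on Cd209a alone 30. Another 22 failed only the limit on the proliferation genes Mki67 and Top2a, 6.63% of the 332 barcodes that met the rest (95% interval 4.20 to 9.86%).

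Metabolic and stress lists had few genes past 2-fold against nonclassical monocytes, so those counts are given as description only. Over all genes tested, 7.13% were higher and 6.08% lower, with a median log2 ratio of 0.02. Of 22 respiratory chain genes 0 were higher and 0 lower, with a median of 0.50; without the barcodes of other lineages 2 were higher. Of 20 glycolysis and hypoxia genes 1 was higher and 2 lower, with a median of 0.28. Of 22 immediate early and dissociation genes 2 were higher and 3 lower, with a median of -0.48. Without the barcodes of other lineages 3 were higher and 5 lower. Against Kupffer cells 2 of these 22 were higher and 8 lower, with a median of -0.82, where 12.7% and 13.5% of all genes were higher and lower with a median of 0.01; without the barcodes of other lineages 1 was higher and 10 were lower.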
